A study of Mus musculus with 6 samples.

Results

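The start of Sox9 and the gene desert in front of it were followed at days 0, 3 and 10 of chondrocyte differentiation by ATAC-seq, an assay that marks open chromatin by where the enzyme Tn5 inserts adapters. The stretch described runs on mouse chromosome 11 from 111000001 to 113000000 (GRCm39, counted from 1). Members were chosen by position alone, as all listed peaks whose summit lies in these 2 megabases. They were 180 peaks in each Day0 library, 197 and 193 on Day3, and 581 and 602 on Day10, or 1933 of 1455940 peaks in all. The Sox9 start was taken at 112673050 on the plus strand, and distances are given from it.

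The cells were ATDC5, a mouse prechondrocyte line. Cultures were spotted as dense droplets and left to attach for 24 hours. Day0 cultures carry the label control. Day3 and Day10 cultures carry the label differentiation and received beta-glycerophosphate and an ascorbate phosphate. Cells of all 3 days were unfixed and snap frozen, and each day has 2 libraries labelled as biological replicates of this single line. Each list comes from a bulk culture, so more cells with an open region and a more open region per cell cannot be told apart.

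Sox9 encodes an HMG-box transcription factor that chondrocytes need in order to form. With its partners Sox5 and Sox6 it drives genes of the cartilage matrix such as Col2a1 and Acan. The gene stands in a very large desert, and distant enhancers there are known to control it in cartilage, the face, the testis and other tissues. In people, deletions and breaks in the matching desert disturb skeletal development, as in campomelic dysplasia and Pierre Robin sequence. In the RefSeq gene order for GRCm38.p6, which was used for order only, the next well-known genes are Kcnj2 before Sox9 and Slc39a11 after it. Between Kcnj2 and Sox9 that table holds 5 lncRNAs, 1 pseudogene and the protein-coding model Gm11677. Between Sox9 and Slc39a11 it holds 9 lncRNAs. None of these was placed on the positions of the lists.

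The lists differ in length and depth, which bears on every count. The Day0 lists hold 164642 and 164960 peaks, the Day3 lists 177751 and 177111, and the Day10 lists 381376 and 390100. Relative depth, estimated from the peak scores, was 1.0 in both Day0 libraries, 1.13 and 1.11 on Day3, and 1.96 in both Day10 libraries. The narrowest peak of the Day10 lists is also smaller, at 68 and 72 bases, while in the other lists it is 87 to 90. Only the Day3 lists carry the word lysis in their peak names. Differentiation and any separate handling of a day's libraries therefore cannot be told apart. Peaks were compared by rank within their own list, with rank 1 the smallest p in the authors' table, because equal numbers of strong peaks can be set side by side.

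The Sox9 start itself lay under a single broad peak in every library. This peak spanned 2152 and 2065 bases on Day0, 2203 and 2194 on Day3, and 2306 and 2311 on Day10. Its summit stood 89 to 112 bases upstream of the start in all 6 libraries. The authors' fold over background was 46.6 and 52.0 on Day0, 40.6 and 43.4 on Day3, and 38.9 and 37.2 on Day10. In rank it stood at 5189 and 2550 on Day0, 6028 and 4331 on Day3, and 4053 and 6694 on Day10. The ranks of the 3 days overlap, while the folds on Day10 lie below those on Day0. An exact two-sided permutation test of an ordered trend in rank (Jonckheere-Terpstra) over the 3 days gave p = 0.578 over 90 arrangements, where the smallest possible p is 0.022.

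The lower fold went with a lower fold of strong regions in general. Over the 31213 regions of the genome that were strong on all 3 days, the median fold was 35.0 and 35.2 on Day0, 31.7 and 32.3 on Day3, and 29.7 and 30.7 on Day10. Read pileup at the Sox9 summit, recovered from the fold, was 79 and 89 on Day0, 72 and 77 on Day3, and 80 and 79 on Day10. Divided by the estimated depth it was 79.0 and 89.2 on Day0, 63.9 and 69.1 on Day3, and 40.8 and 40.2 on Day10, and the same exact permutation test then gave p = 0.022, the smallest it can give. The median over the regions strong on all days had the same order, at 59.0 and 60.2 on Day0, 49.7 and 51.2 on Day3, and 31.1 and 33.1 on Day10. The largest pileup in a whole list was 136 and 144 on Day10, against 166 to 174 in the other libraries. The part of depth and of this ceiling in the depth-scaled values was not tested.

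Around the broad peak, the listed open chromatin covered more of the locus with each later day. Within 10 kb of the start the lists held 9 and 10 peaks on Day0, 15 and 13 on Day3, and 23 in each Day10 library. They covered 28.0% and 28.6% of those bases on Day0, 36.1% in each Day3 library, and 56.8% and 56.5% on Day10. The deeper Day10 libraries also list more peaks over the whole genome, and the part of depth in this cover was not tested.

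**Figure D1:**
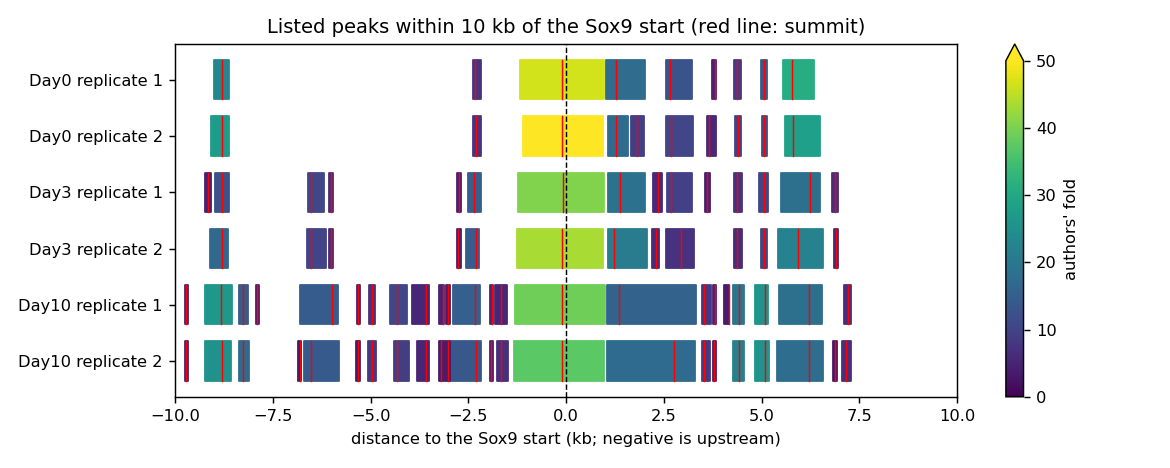
Listed peaks within 10 kb of the Sox9 start, drawn to scale in each library (rows), with distance in kb on the horizontal axis, the authors' fold as colour and the summit as a red line. The broad peak at the start is present in all 6 rows, and the stretch from 1048 to 3332 bases downstream, a single peak in Day10 replicate 1, is split into 2 or 3 peaks in each Day0 and Day3 library.

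Several smaller elements near the gene differed in rank between days, and these were chosen after their values were seen. A pair of neighbouring elements 4.4 and 5.1 kb downstream of the start was stronger in rank on Day10. The first ranked 91708 and 83332 on Day0, 97296 and 115227 on Day3, and 42073 and 35766 on Day10. The second ranked 60846 and 69589 on Day0, 69168 and 69800 on Day3, and 24436 and 25983 on Day10. In both, each Day10 rank was better than every rank of Day0 and Day3. The peak over the region at 5.8 kb went the other way. It ranked 21858 and 26117 on Day0, 38916 and 30435 on Day3, and 47641 and 50701 on Day10. Its summit lay 5790 and 5806 bases downstream on Day0, 6231 and 5920 on Day3, and 6215 and 6223 on Day10. These ranks may thus not follow a single element. Upstream, a peak over the region at 2.4 kb ranked 103344 and 104252 on Day0, 49123 and 51606 on Day3, and 64055 and 72901 on Day10, so its best ranks were those of Day3.

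For the whole stretch, regions of 501 bases were centred on the 50000 strongest summits of each library. Of 78698 such regions in the genome, 108 lie in the Sox9 stretch, 75 upstream of the start and 33 downstream. A region is called strong on a day when a peak ranked 50000 or better overlaps it in both libraries, and out when no peak ranked 100000 or better overlaps it in either. Strong regions numbered 48 of 108 on Day0, 45 on Day3 and 68 on Day10. Over the genome the strong share was 62.0%, 63.1% and 62.6% on those days, nearly level because equal numbers of peaks are compared. In the Sox9 stretch it was 44.4% on Day0, 41.7% on Day3 and 63.0% on Day10. Most of the added strong regions of Day10 lay upstream, where strong regions numbered 28, 26 and 45, while downstream they numbered 20, 19 and 23.

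In single libraries, too, Day10 held the most strong peaks. Among the 50000 strongest peaks of each library, the stretch held 49 and 56 on Day0, 49 and 47 on Day3, and 75 and 70 on Day10. The values of Day10 do not overlap those of the other days. The ratio of the Day10 mean to the Day0 mean was 1.38 in these equal lists. It was 1.55 among the 25000 strongest peaks and 2.0 where the -log10 q had to reach 10, for which the whole lists gave 1.47. Counting all listed peaks it was 3.29, against 2.34 for the whole lists.

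**Figure D2:**
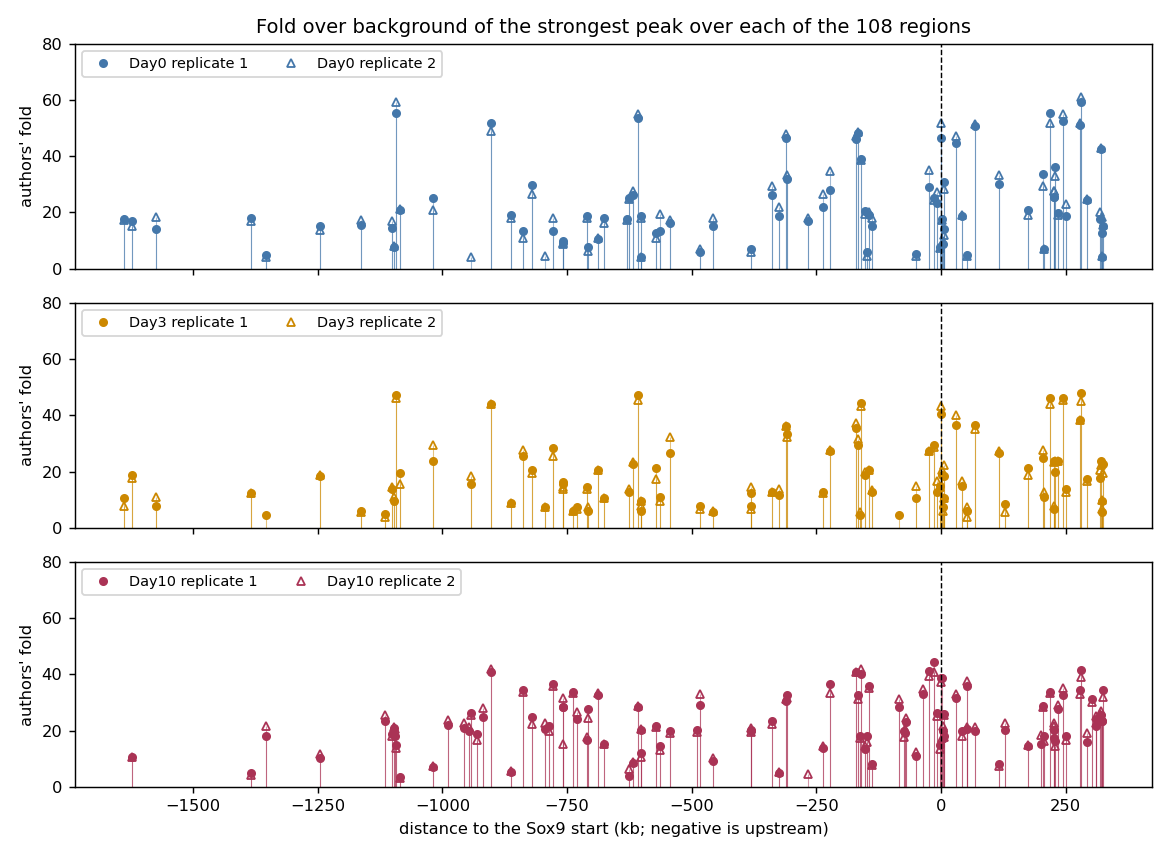
Authors' fold over background (vertical axis) of the strongest peak over each of the 108 regions, against distance to the Sox9 start in kb (horizontal axis), with 1 panel per day and 1 symbol per library. More upstream regions carry a peak on Day10, while the tallest peaks are lower there than on Day0.

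A core of the landscape was open throughout. Of the 108 regions, 25 (23.1%) were strong on all 3 days, against 39.7% of all regions. They divide into 13 of the 75 regions upstream and 12 of the 33 downstream. The strongest lay 281.0 kb downstream, on chromosome 11 from 112953839 to 112954339, with ranks of 343 and 257 on Day0, 1921 and 3360 on Day3, and 1948 and 4715 on Day10. Far upstream, at 901.9 kb, the region from 111770874 to 111771374 ranked 2249 and 4060 on Day0, 3752 and 3993 on Day3, and 2523 and 2467 on Day10. Its Day3 and Day10 ranks lie within the range of its Day0 ranks. Regions 245.0 and 219.0 kb downstream, together with the start itself, complete the 5 strongest. The region at 245.0 kb ranked 2024 and 1401 on Day0, 2639 and 3034 on Day3, and 11809 and 8996 on Day10. That at 219.0 kb ranked 1091 and 2551 on Day0, 2638 and 3994 on Day3, and 10358 and 11609 on Day10, so both stood lower in the list on Day10 than on either earlier day.

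Day10 was compared with Day0 to see which elements of the desert had opened or closed by the end of the course. A region counts as gained when it is strong on the later day and out on the earlier day, both by peaks with their summit in it and by any overlapping peak. Lost is the mirrored rule, and kept means strong on both days. By this rule 29 of 108 regions (26.9%) were gained, against 10.7% of all regions. Another 9 (8.33%) were lost, against 7.99% of all regions, a difference whose direction varied with the thresholds, and 27 (25.0%) were kept, against 41.3%. On chromosome 11 outside the stretch, 10.7% were gained, 5.73% lost and 46.0% kept. No p-value is given, since the smallest that an exact two-sided permutation of 2 against 2 libraries allows is 0.333. The difference in share between the stretch and the rest was not tested either, and neighbouring regions are not independent. Leaving out any 1 of the 4 libraries gave 29 to 34 gained and 9 to 13 lost, but this loosens the rule, so such counts can only rise.

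Over all 1253 occupied pieces of 2 megabases in the genome, the median piece held 52.0 regions, of which 4.0 were gained and 4.0 lost. The most in a single piece were 60 gained and 20 lost. As many gained regions as the 29 of the Sox9 stretch, or more, stood in 21 pieces, and as many lost regions as its 9, or more, in 215. The stretch holds 108 regions, more than the median piece, and these counts were not scaled by the number of regions. By share, 26.9% of its regions were gained and 8.33% lost, against 10.7% and 7.99% of all regions.

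The gained regions reached from 1354.1 kb upstream to 323.0 kb downstream, with 22 upstream and 7 downstream. Their median rank on Day10 was 34165 and 30492, with a median fold of 22.1 and 23.7. On Day0, 20 of the 29 had no listed peak in either library, a share of 69.0%, against 69.9% of all regions gained in the genome. Where a Day0 peak was listed, its fold was 4.0 to 7.6. Absence from a Day0 list does not show closed chromatin, since those libraries were shallower by the estimate above.

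The strongest gained region lay 51.5 kb downstream, on chromosome 11 from 112724274 to 112724774. It was not listed on Day0, was listed on Day3 in replicate 2 alone at rank 172995, and ranked 7179 and 6176 on Day10 with a fold of 36.0 and 37.6. The gained region nearest to the gene, 35.9 kb upstream from 112636856 to 112637356, was absent from all 4 earlier lists and ranked 11074 and 9625 on Day10. Its fold there was 33.1 and 34.9, close to the 38.9 and 37.2 of the Sox9 start. A region 302.9 kb downstream, from 112975675 to 112976175, was likewise absent before and ranked 14123 and 16709 on Day10. These 3 regions thus had a strong peak on Day10 alone.

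Other strongly gained regions had weak peaks earlier. At 737.6 kb upstream, the region from 111935239 to 111935739 was not listed on Day0, ranked 114740 and 115215 on Day3 and 10357 and 11606 on Day10. At 483.0 kb upstream, from 112189847 to 112190347, ranks were 130243 and 111442 on Day0, 90838 and 105608 on Day3, and 17507 and 12267 on Day10. The fold there was 5.8 and 6.9 on Day0, 7.8 and 6.7 on Day3, and 29.3 and 33.0 on Day10, so most of the difference lay after Day3. The most distant gained region, 1354.1 kb upstream from 111318717 to 111319217, ranked 154815 and 162453 on Day0. It was listed on Day3 in replicate 1 alone, at rank 161495, and ranked 47637 and 35765 on Day10.

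**Figure D3:**
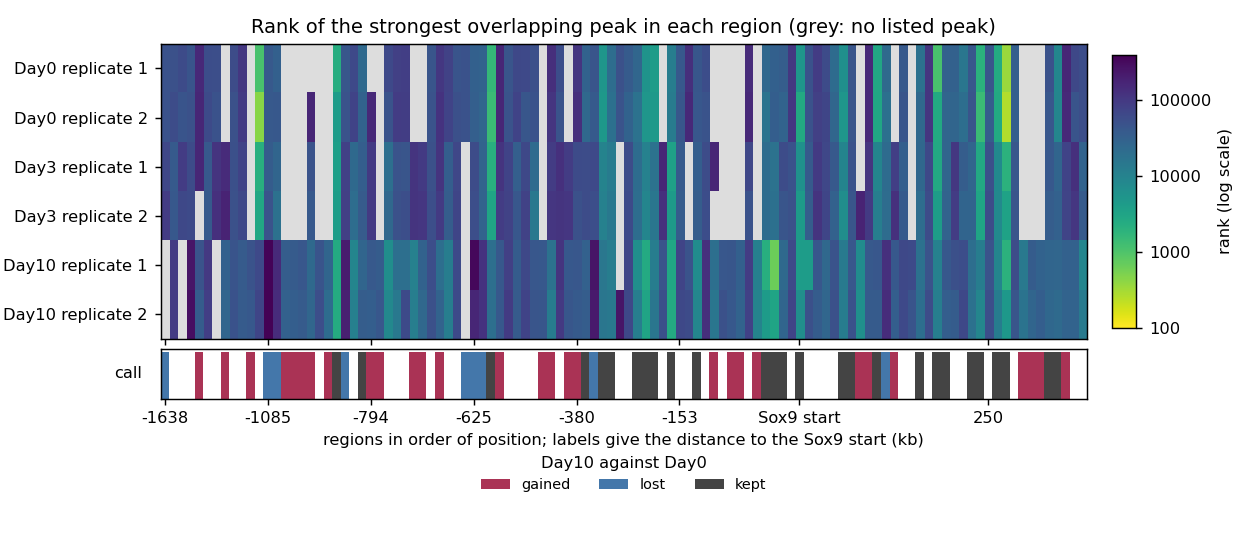
Rank of the strongest overlapping peak (colour, log scale, grey where none was listed) for the 108 regions in order of position (columns) in each library (rows), above a strip with the call of Day10 against Day0. Runs of grey on Day0 and Day3 that are filled on Day10 mark gained regions, with 20 of 29 unlisted in both Day0 libraries.

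The position of the calls differed along the desert. The first of the following zones was picked as the neighbouring bins with the most gained regions, after their values were seen. From 1000 to 600 kb upstream, there were 11 gained, 4 lost and 3 kept among 27 regions. From 200 kb upstream to the start, there were 4 gained, 0 lost and 8 kept among 19. Within 100 kb of the start on either side, the 20 regions held 6 gained, 0 lost and 7 kept. Of all regions in the genome, 10.7% were gained, 7.99% lost and 41.3% kept. The kept counts of the last 2 zones lie near that share, and at that lost share such small zones would hold few lost regions. The 9 lost regions lay from 1638.5 kb upstream to 115.6 kb downstream, and 8 of them upstream. The differences between these distance classes were not tested, and the classes hold few regions.

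**Figure D4:**
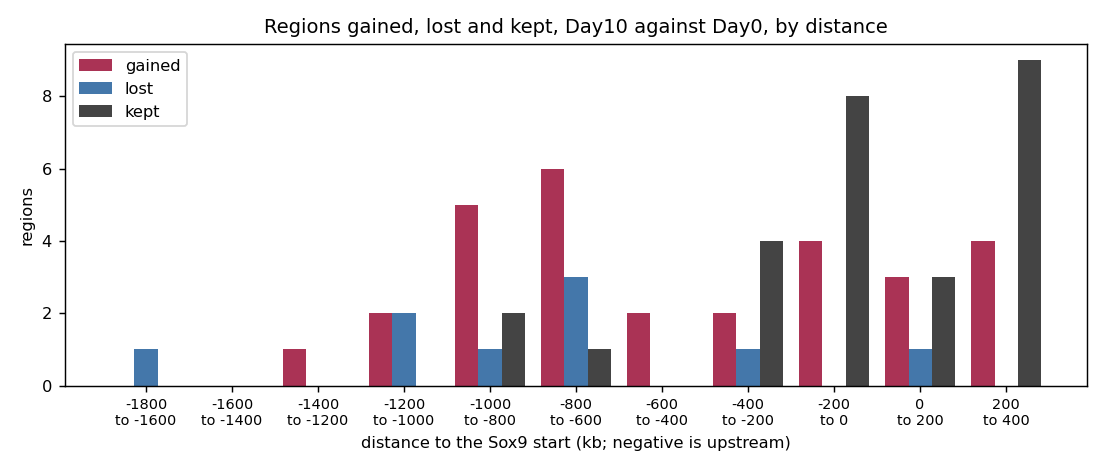
Number of regions (vertical axis) gained, lost and kept on Day10 against Day0 in bins of 200 kb by distance to the Sox9 start (horizontal axis, kb), where the outermost bins extend beyond the stretch. The bins with the most gained regions lie between 1000 and 600 kb upstream, with 5 and 6, while those with the most kept regions run from 200 kb upstream to the start, with 8, and from 200 to 400 kb downstream, with 9. The bins with the most kept regions also hold the most regions, at 19 and 21.

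Several gained regions were close neighbours, as picked out after their values were seen. Regions 70.4 and 71.7 kb upstream were both absent from all 4 earlier lists and ranked 31458 and 28157, and 43892 and 40167, on Day10. Another gained region stood 83.9 kb upstream, from 112588927 to 112589427. It was listed before Day10 in Day3 replicate 1 alone, at rank 161506, and ranked 19284 and 15187 on Day10. Downstream, regions at 311.1 and 311.8 kb were absent from the earlier lists and ranked 35620 and 27058, and 28964 and 32994, on Day10.

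The lost regions had been weaker on Day0 than the kept ones. Their median rank on Day0 was 39428 and 38978, against 11950 and 12841 for the 27 kept regions. The same comparison over all lost and kept regions of the genome was not made. Of the 9 lost regions, 2 (22.2%) were listed in neither Day10 library, against 15.5% of all lost regions. The other 7 were still listed in each Day10 library, with a fold of 3.3 to 8.8. The strongest lost region, 115.6 kb downstream from 112788391 to 112788891, was also the nearest to the gene and the single one downstream. It ranked 22701 and 18909 on Day0, 21904 and 21372 on Day3, and 127631 and 139712 on Day10. A region 618.2 kb upstream, from 112054567 to 112055067, had a like course, with ranks of 29068 and 27043 on Day0, 28787 and 28177 on Day3, and 119990 and 116434 on Day10. Both held nearly the same ranks on Day3 and left the strong class afterwards. Of the 5 strongest lost regions, 4 were no longer called with the 25000 strongest peaks, 3 with the 75000 strongest and 4 when the deposited -log10 q, at 10 for strong and 5 for out, took the place of the rank.

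Near the one at 618.2 kb, a region 625.4 kb upstream, from 112047416 to 112047916, had gone partway on Day3. It ranked 31084 and 32025 on Day0, 57824 and 53691 on Day3, and 335148 and 161771 on Day10. The region 1018.9 kb upstream, from 111653852 to 111654352, ranked 31083 and 40325 on Day0, 26683 and 18103 on Day3, and 146111 and 139704 on Day10. At 1085.3 kb, from 111587462 to 111587962, ranks were 39428 and 38978 on Day0, 36089 and 47694 on Day3, and 368617 and 377456 on Day10. The farthest lost region, 1638.5 kb upstream from 111034314 to 111034814, ranked 48612 and 49465 on Day0 and 69162 and 91493 on Day3, and was not listed on Day10.

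Among the 27 regions kept between Day10 and Day0, ranks within the list still differed. In 10 (37.0%) both Day10 ranks were better than both Day0 ranks, against 40.2% of all kept regions. In 12 (44.4%) both were worse, against 34.1% of all kept regions. The clearest examples were again chosen after their values were seen. The region 14.9 kb upstream ranked 31085 and 33137 on Day0, 17762 and 18888 on Day3, and 654 and 3099 on Day10, where it was ahead of the Sox9 start in both libraries. The region 24.0 kb upstream ranked 24375 and 16865 on Day0, 21048 and 21371 on Day3, and 2238 and 4269 on Day10. In the other direction, the region 68.5 kb downstream ranked 2765 and 2824 on Day0, 9358 and 11470 on Day3, and 42075 and 37181 on Day10.

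Day3 was compared with Day0 for early changes, and few were found. By the same rule 1 of 108 regions was gained (0.926%, against 0.543% of all regions), 1 was lost (0.926%, against 0.513%) and 36 were kept (33.3%, against 51.5%). The gained region lay 943.0 kb upstream, from 111729771 to 111730271. It was listed on Day0 in replicate 2 alone, at rank 162454, and ranked 47243 and 39370 on Day3 and 23311 and 25982 on Day10. The lost region lay 628.8 kb upstream, from 112043989 to 112044489, ranked 48613 and 49467 on Day0, and was listed in no Day3 or Day10 library. The lost region stood close to the rank of 50000 on which the call turns, as did the gained region in Day3 replicate 1. Without Day0 replicate 1 the lost count was 5 (4.63%, against 0.742% of all regions). The gained count was 2 (1.85%) without Day3 replicate 1, against 0.783% of all regions. It was also 2 (1.85%) without Day3 replicate 2, against 0.801%. Leaving out a library loosens the rule, so such counts can only rise.

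Below that threshold, 6 regions were between the classes on Day0 and strong on Day3 and Day10 (5.56%, against 4.89% of all regions). A set of 3 in the distant desert, chosen after their values were seen, had better ranks on each later day. At 837.5 kb upstream ranks were 63303 and 75909 on Day0, 23747 and 20552 on Day3, and 9027 and 10919 on Day10. At 779.0 kb they were 63305 and 47830, then 19357 and 24118, then 6604 and 8389 on the same days. At 687.2 kb they were 78767 and 75910, then 33456 and 34007, then 11806 and 11607. In all 3 the ranks of the 3 days do not overlap. Of the rest of this class, the region 325.9 kb downstream took the same course. At 572.6 kb upstream the ranks overlapped, at 32228 and 42464 on Day3 and 35619 and 37179 on Day10. At 542.6 kb upstream they were best on Day3, at 21903 and 14600, and were 42070 and 45071 on Day10.

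The later step of the course was taken up by setting Day10 against Day3. In the stretch 18 of 108 regions were gained (16.7%, against 7.72% of all regions), 4 were lost (3.7%, against 3.16%) and 32 were kept (29.6%, against 45.0%). The direction of the difference in lost share varied with the thresholds. The comparison with Day3 shares its Day10 libraries with that against Day0, so the lists are not independent. Of the 18 gained, 13 had no listed peak in either Day3 library, a share of 72.2%, against 57.1% of all regions gained. The 5 strongest were those at 51.5, 35.9, 737.6, 302.9 and 83.9 kb already described. The 4 lost were those at 115.6, 1018.9, 618.2 and 1085.3 kb.

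By its state on all 3 days, the most frequent changing class was out on Day0 and Day3 and strong on Day10, with 18 regions (16.7%, against 7.41% of all regions). Another 10 were out on Day0, between the classes on Day3 and strong on Day10 (9.26%, against 3.39%). Of the 29 regions gained on Day10 against Day0, 1 was strong, 10 were between and 18 were out on Day3. These shares were 3.45%, 34.5% and 62.1%, beside 3.48%, 30.2% and 66.3% of all gained regions. Of the 9 lost, 4 were still strong on Day3, 4 were between and 1 was out. These shares were 44.4%, 44.4% and 11.1%, beside 32.9%, 61.6% and 5.58% of all lost regions.

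**Figure D5:**
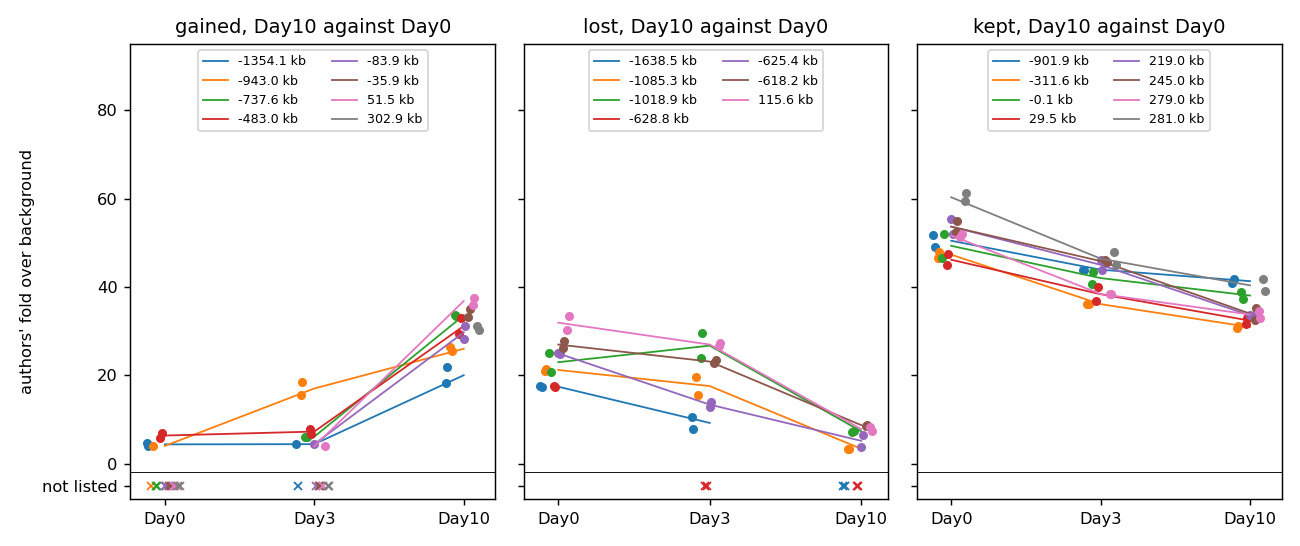
Authors' fold over background (vertical axis) by day for the regions named by rule, in panels of gained, lost and kept on Day10 against Day0. Points are libraries, lines join the means of listed values, and crosses below the axis mark libraries with no listed peak; the gained regions reach 18.2 to 37.6 on Day10.

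A region strong on Day0 and Day3 fell into neither the lost nor the kept class on Day10, and it was singled out after its values were seen. At 1093.5 kb upstream it had the best Day0 ranks of any upstream region, 1090 and 442, with a fold of 55.3 and 59.5. On Day3 it ranked 2150 and 2775. On Day10 it ranked 64052 and 69860, with a fold of 14.9 and 13.9, so it missed the lost class because a moderate peak was still listed. The region 608.4 kb upstream, also picked after its values were seen, ranked 1581 and 1400 on Day0, 2151 and 3033 on Day3, and 19283 and 19226 on Day10, and it counted as kept.

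Regions whose fold ran most like that of the Sox9 start over the 6 libraries lay on both sides of the gene. Likeness was the Pearson r of the log2 fold, over the 74 other regions listed in all 6 libraries. The 3 closest lay 29.5 kb downstream (r = 0.96), 311.6 kb upstream (r = 0.95) and 279.0 kb downstream (r = 0.95). All 3 were strong on every day. The points share their libraries, and the median fold of strong regions differs between libraries as given above, so this is a description without a test. The median r over the 74 was 0.41, with 35 regions above 0.5 and 24 below -0.5.

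At the edges, the first region inside the stretch was the lost one 1638.5 kb upstream, and the last lay 325.9 kb downstream with Day10 ranks of 9029 and 13670. The nearest regions outside lay 1716.1 kb upstream and 327.1 kb downstream, and both were strong on all 3 days.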

How the data were processed

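The authors deposited 1 narrowPeak list per library, giving for each peak a fold ratio, a -log10 p, a -log10 q, a score and positions. Trim Galore and mm10 are named in the submitters' processing notes; per the labels' protocols reads were single-end, of 75 bases. Aligner and peak caller: not given in the sources used here. Positions were read as GRCm39: each library has 1 peak within 1 kb of the Sox9 start of that build and 0 within 1 kb of its GRCm38.p6 position. No sequence or gene annotation of GRCm39 was used, so planned marker and cartilage genes were not analysed here.

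Peaks on chromosomes 1 to 19, X and Y were ranked by the deposited -log10 p, then fold, then position. Windows of 250 bases on each side of the 50000 strongest summits were made non-overlapping in favour of the better rank. Out means worse than 100000 or not listed. A region's rank and fold are those of its best overlapping peak. Pileup was recovered from fold = (pileup + 1) / (background + 1), whole within 0.01 in 100.0% of peaks; depth is background divided by least width. Read totals were not used, so no counting intervals are given. Replicates are labelled as biological and may share more than the labels say.

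Named regions follow a rule: the region nearest to the Sox9 start, the 5 strongest kept, gained and lost, the nearest and farthest changed, and the 3 most alike. Exceptions are marked as chosen after their values were seen. Members, lists and rules were chosen with earlier results of these data known. Calls were run on simulated lists with well separated strengths and no difference in depth between days. The deposited lists differ in both, so this run checks the code alone. Alternatives varied ranks, gap, overlap rule, width, q and libraries. Python 3.11.15, numpy 2.4.6 and pandas 2.3.3 were used.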

Additional observations from a re-analysis of the deposited data

How the results depend on the processing

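Counts of gained and lost regions in the stretch followed the thresholds; the cause of each move was not tested beyond the number of regions compared. For Day10 against Day0 (29 gained, 9 lost), the 25000 strongest peaks gave 10 gained and 3 lost of 47 regions, the 75000 strongest 43 gained and 16 lost of 164, and ranks without a gap 38 gained and 16 lost. The gained share stayed above that of all regions in each of these, at 21.3% against 9.33%, 26.2% against 11.5% and 35.2% against 18.1%. The lost share went both ways, at 6.38% against 7.85%, 9.76% against 8.01% and 14.8% against 17.5%, and was 6.48% against 3.43% in stricter lists by q. For Day10 against Day3 (18 gained, 4 lost), those settings gave 6 and 2, 31 and 4, and 33 and 10. The gained share again stayed above that of all regions, at 12.8% against 7.05%, 18.9% against 8.13% and 30.6% against 15.0%. The lost share again went both ways, at 4.26% against 3.01%, 2.44% against 3.52% and 9.26% against 14.1%. For Day3 against Day0 (1 gained, 1 lost), those settings gave 1 and 0, 4 and 3, and 7 and 10. The gained shares were 2.13% against 0.421%, 2.44% against 0.938% and 6.48% against 7.99%. The lost shares were 0.0% against 0.613%, 1.83% against 0.826% and 9.26% against 7.65%. Stricter lists by q gave 2 and 2, at 1.85% against 1.48% and 1.85% against 0.461%. Regions of 100 bases on each side gave 0 gained, against 0.484% of all regions. The summit rule alone, the overlap rule alone and 500 bases on each side kept every count within 1.5 times. Leaving out 1 library gave 29 to 34 gained and 9 to 13 lost for Day10 against Day0, 19 to 23 and 4 to 5 for Day10 against Day3, and 1 to 2 and 1 to 5 for Day3 against Day0; this removes a condition, so such counts can only rise. The Sox9 start's p was 0.578 in rank, 0.022 in depth-scaled pileup, and 0.2 to 1.0 without a library, where 0.067 is the smallest possible (exact permutation tests). With the replicate block, added after seeing the data, it was 0.722, where 0.056 is the smallest possible. The part of the estimated depth in the p of the depth-scaled pileup was not tested. The added ratio of peaks, Day10 to Day0, was 1.38, and 3.29 over whole lists. Of the 21 calls of named regions, 12 held under the 25000 strongest, 13 under the 75000 strongest and 12 in lists by q. With 100 bases on each side 20 held, and with 500 bases 21. Repeats without a library, without the gap, or by the summit or overlap rule alone only loosen the rule, so no call could end there. The rule applied within replicate numbers gives the same calls, since it needs every library. By the labels, same-numbered libraries share only a number. Correlations of their deviations were 0.0 to 0.02 over the 31213 regions strong on all 3 days, which cannot show that they were handled apart.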
